A study of Mus musculus with 9 samples.

Results

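The clustered protocadherin genes of the mouse lie on chromosome 18 in 3 neighbouring clusters, Pcdha, Pcdhb and Pcdhg. Members were taken as every gene of the GENCODE annotation of mm9 on that chromosome whose symbol begins with Pcdha, Pcdhb or Pcdhg. This rule found 25 of 37252 annotated genes on chromosomes 1 to 19 and X, spanning chr18:37089939-38001527, and 100 kb was added on either side. The annotation joins most Pcdha and all Pcdhg genes under a single symbol each, so the members were also placed by their variable exons, which gave 58 exons: 14 of Pcdha, 22 of Pcdhb and 22 of Pcdhg. RefSeq lists 14, 22 and 22 symbols for the same clusters. Pcdhb genes and Pcdha3 are called by symbol here, and the other exons by their number from the 5′ end, since the annotation used does not pair those exons with symbols.

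Clustered protocadherins are cell surface adhesion proteins best known from neurons, where each cell uses a few of them and the combination serves as an identity mark. Each Pcdha and Pcdhg messenger RNA joins one large variable exon, which has its own promoter and encodes the extracellular part, to a shared set of small constant exons. Pcdhb genes consist of a variable exon alone. In neurons CTCF, the zinc finger protein that anchors chromatin loops, binds at many of these promoters and at enhancers downstream, and cohesin, the ring complex that contains Rad21, joins them in loops. The last exons of Pcdha and Pcdhg, known as C-type, differ in sequence from the others and are used more widely among neurons.

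ChIP-seq peak lists for CTCF and Rad21 in lymphocyte progenitors of C57BL/6 mice were examined, 5 in all, each from 1 library. Pre-B cells, profiled for CTCF and for Rad21, came from the bone marrow of RAG-/- mice that carried a rearranged IgM transgene. Pro-B cells from RAG1-/- bone marrow were grown with the cytokine IL7 for 7 days and profiled for CTCF. Thymocytes were profiled for Rad21: CD4-CD8- (DN) cells from Rag1-/- mice, and CD4+CD8+ (DP) cells from Rag1-/- mice that carried a rearranged TCRb transgene. Mice were 6 to 14 weeks old for the bone marrow cells and 4 to 8 weeks for the thymocytes. All groups thus lack RAG1 or RAG, which stops V(D)J rearrangement and holds the cells at a stage. The promoter behind each transgene and the number of mice in a library are not given in the sources used here, and peak lists hold no expression, so the cell labels could not be checked against marker genes.

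The lists held 42250 (CTCF, pre-B), 71080 (CTCF, IL7-cultured pro-B), 30488 (Rad21, pre-B), 9701 (Rad21, DN) and 36743 (Rad21, DP) peaks. The number of reads behind each is unknown, so a place without a peak is one where none was called, not one shown to be unbound. MACS scores grow with depth. They were turned into a within-list rank, the percent of peaks in the same list with a lower score, and heights were not compared between lists. With 1 library a group there is no replicate check, no test between cell types or antibodies was possible, and intervals are exact Clopper-Pearson 95% intervals that cover counting error only. Neighbouring exons share sequence and are not independent of each other.

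The 3 clusters were unlike in what was called on them. CTCF was called at nearly every variable exon of all 3 clusters in IL7-cultured pro-B cells, and at fewer in pre-B cells. Rad21 was called only at Pcdhg exons and downstream of them, in each of the 3 libraries, and at none of the Pcdha or Pcdhb exons. With the Rad21 lists limited to equal length, the share of all gene starts called lay inside the intervals on these empty counts. The best-ranked peaks of CTCF and of Rad21 in pre-B cells lay past the last exon, within the neighbouring gene Diap1. In the region with its flanks, 1.11 Mb long, the lists held 165 of their 190262 peaks together.

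For CTCF the region was dense in peaks. There were 32 peaks in pre-B cells, or 28.8 per Mb, against 16.0 per Mb over chromosomes 1 to 19 and X. IL7-cultured pro-B cells had 94 peaks, or 84.6 per Mb against 26.9. In the full lists Rad21 was closer to the level of the rest of the genome, with 17 peaks in pre-B cells (15.3 per Mb against 11.6), 4 in DN (3.60 against 3.68) and 18 in DP thymocytes (16.2 against 13.9). Those Rad21 averages hid an uneven spread, since from the upstream flank through the last Pcdhb gene no Rad21 peak was called in any library. Over the same stretch there were 10 CTCF peaks (pre-B) and 58 (IL7-cultured pro-B). The contrast in density between the proteins depends on list length. With the Rad21 lists limited to the 9701 peaks of DN, the region held 10 (pre-B) and 8 (DP) beside the 4 of DN. At that length the level of the genome is near the 3.68 per Mb of DN, so pre-B and DP then stood above it.

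**Figure D1:**
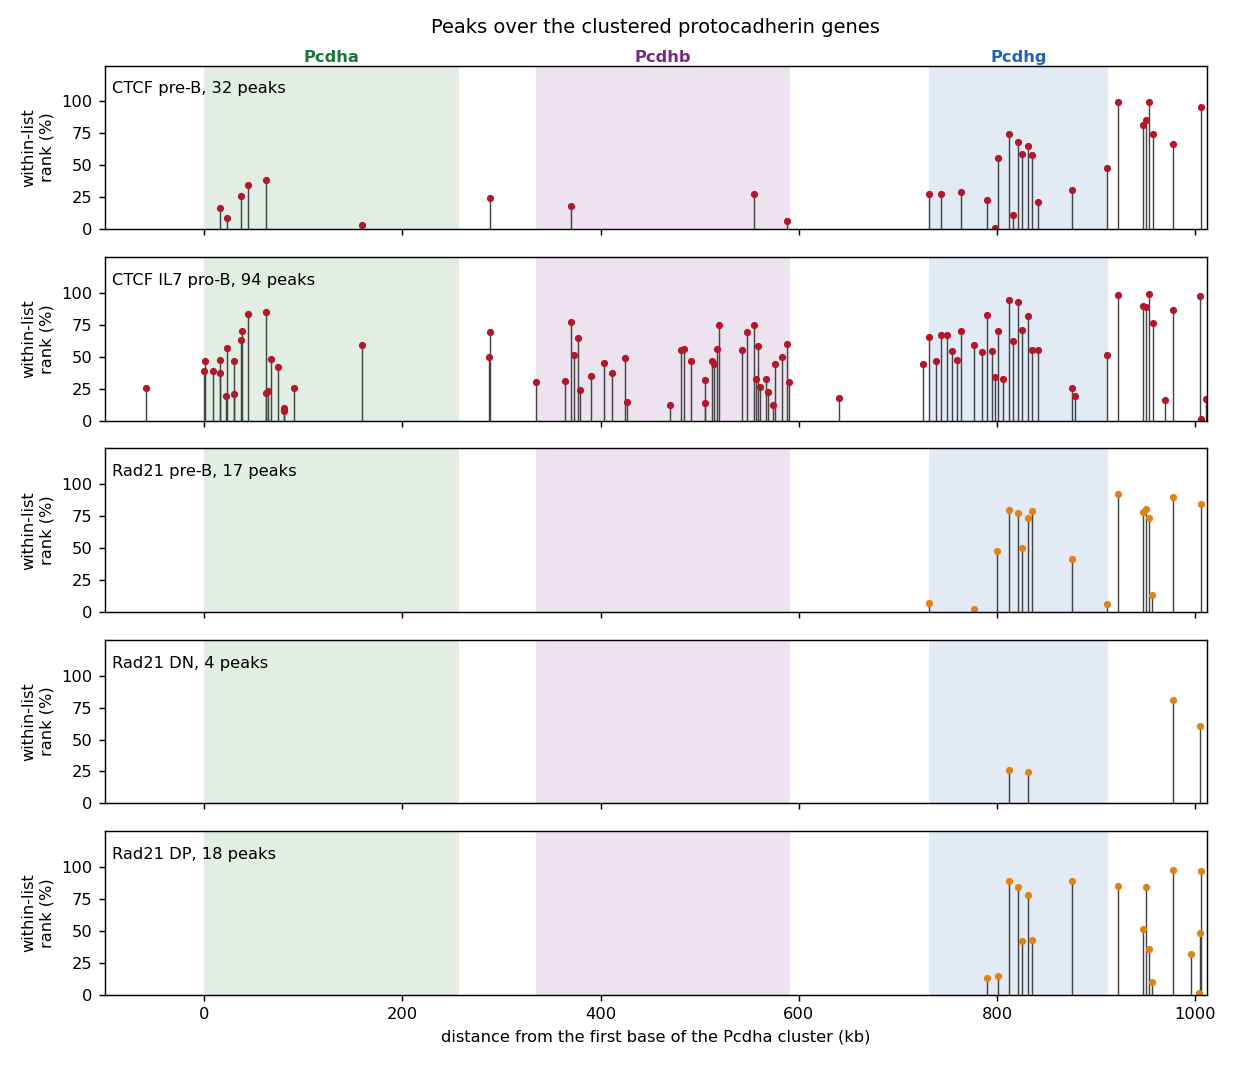
Peaks of the 5 lists along the region. The x axis is the distance in kb from the first base of the Pcdha cluster, the y axis is the within-list rank in percent, each stem is 1 peak, and shading marks the clusters with Pcdhg begun at its first variable exon. The 32 and 94 CTCF peaks run across all 3 clusters, while the 17, 4 and 18 Rad21 peaks start at Pcdhg, and the highest stems stand past its end.

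Promoters were compared with those of other genes through the starts that GENCODE annotates, 41 in all with 10 in Pcdha, 22 in Pcdhb and 9 in Pcdhg. In IL7-cultured pro-B cells a CTCF peak was called within 1 kb of 38 of the 41 starts (92.7%, 80.1 to 98.5%), against 33.2% of all 22350 protein-coding genes. In pre-B cells 11 of 41 had one (26.8%, 14.2 to 42.9%), against 22.0% of protein-coding genes, a background value inside the interval. Rad21 was called at 4 of 41 pre-B starts (9.76%, 2.72 to 23.1%, background 16.9%), at 1 DN start (2.44%, 0.0617 to 12.9%, background 3.0%) and at 4 DP starts (9.76%, 2.72 to 23.1%, background 29.5%). All of the starts with Rad21 were Pcdhg starts. Of the Rad21 shares, only that of DP thymocytes lay with its whole interval under the background. With the Rad21 lists limited to equal length it was 2 of 41 (4.88%, 0.596 to 16.5%) against 6.04%, inside the interval. Pre-B Rad21 was then also at 2 of 41 (4.88%), against 3.41%, so its order against the background turned. With CTCF lists of equal length, IL7-cultured pro-B cells had a peak at 25 of 41 starts (61.0%), against 18.9%.

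Counted by variable exon, a CTCF peak stood within 1 kb of the start of 55 of 58 reading frames in IL7-cultured pro-B cells, made up of 13 of 14 Pcdha, 22 of 22 Pcdhb and 20 of 22 Pcdhg exons. In pre-B cells the counts were 6 of 14, 3 of 22 and 12 of 22. Rad21 was at 9 (pre-B), 2 (DN) and 8 (DP) Pcdhg exons, and at 4, 2 and 4 when its lists were limited to the 9701 best peaks each. For Pcdha and Pcdhb the count of 0 allows a share of up to 23.2% of 14 and 15.4% of 22 exons. In the full lists the DN background lay inside both intervals, that of pre-B inside the Pcdha one alone, and that of DP in neither. In the limited lists the backgrounds of all Rad21 libraries lay inside both. Of the 58 exons 33 were called in 1 library, 13 in 2, 2 in 3, 5 in 4 and 2 in all 5, and every exon with 3 or more libraries was a Pcdhg exon.

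**Figure D2:**
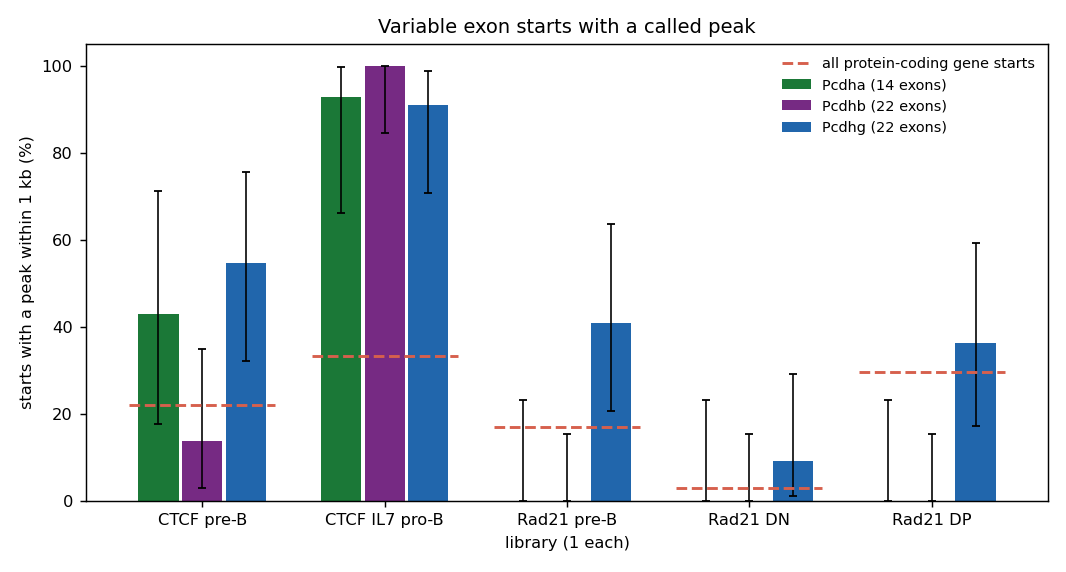
Share of variable exon starts with a peak within 1 kb, in percent, for each library and cluster. Bars are the share of 14 Pcdha, 22 Pcdhb or 22 Pcdhg exons, error bars are exact 95% intervals, and the dashed line is the share over all protein-coding gene starts in the same list. The CTCF bars of IL7-cultured pro-B cells run from 90.9 to 100%, and Rad21 bars appear for Pcdhg alone.

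The lists of the CTCF libraries differ in length, and this bears on the gap between the cell types. When the list of IL7-cultured pro-B cells was limited to its 42250 best peaks, the length of the pre-B list, a peak remained at 42 of 58 exons, with 10 in Pcdha, 14 in Pcdhb and 18 in Pcdhg, against 21 in pre-B cells. The share of all protein-coding starts fell at the same time to 18.9%, below the 22.0% of pre-B cells. The gap was widest at Pcdhb, where the equal lists called 14 exons in IL7-cultured pro-B cells and 3 in pre-B cells.

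Pcdha, the first cluster, had 6 exons called in the pre-B list, and 13 in that of IL7-cultured pro-B cells. In 5′ to 3′ order the best CTCF peak of exons 1 to 13 in IL7-cultured pro-B cells had a within-list rank of 46.3, 38.7, 47.2, 56.7, 46.6, 70.3, 83.6, 84.9, 48.2, 42.2, 9.46, 25.5 and 59.4%. Exons 7 and 8 stood highest and exon 11 lowest. In pre-B cells the called exons were Pcdha3 at 16.2%, exon 4 at 8.98%, exon 6 at 25.8%, exon 7 at 34.6%, exon 8 at 38.7% and exon 13 at 2.99%. All 6 ranked below 50% in their list, and exons 7 and 8 were again the highest. Where pre-B cells had a peak the ranks in IL7-cultured pro-B cells were 47.2 to 84.9%, and where they had none 9.46 to 48.2%, so the groups nearly part. Exon 14, the last before the constant exons, had no peak in any library, and neither had the constant exons themselves.

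The Pcdha peaks fell in a pair of places. Of the 21 peaks at Pcdha frames in IL7-cultured pro-B cells, 11 had their midpoint before the frame, at a median position of -170 bp from its start (-273 to -101 bp). A further 9 lay inside the first 1 kb of the frame, at a median of 445 bp (408 to 548 bp), and 7 exons had both. The last peak was 2178 bp inside exon 8. The pre-B peaks of exons 4, 7 and 8 were of the second kind, and that of exon 6, 1016 bp wide, overlapped both places. The within-list ranks of the first kind had a median of 38.7%, and those in the first 1 kb one of 46.6%.

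Sequence likeness is high among these exons. Exons 1 to 12 each shared 39.7 to 63.3% of their 5-residue protein words with the closest other Pcdha exon, while exons 13 and 14, the C-type pair, shared up to 3.96%. The authors kept reads that map to up to 3 places. In the peaks of exons 7 and 8 in IL7-cultured pro-B cells 59.1% and 57.5% of 36-base words occurred elsewhere in the region. These are the best-ranked Pcdha peaks. Such words followed the place of the peak in that list. None of the 11 Pcdha and 22 Pcdhb peaks before the frame held one, while all 10 Pcdha peaks inside the frame (6.58 to 59.1%) and all 12 Pcdhb peaks inside it (4.35 to 53.8%) did. At Pcdhg 17 of 20 peaks before the frame held none, and the largest share was 8.97%. The part that reads with several places play in the peaks inside the Pcdha and Pcdhb frames was not tested.

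Pcdhb showed the sharpest difference between the B-lineage populations. In IL7-cultured pro-B cells the best peak within 1 kb of the frame start was taken for each gene. For Pcdhb1 to Pcdhb22 it had, in order, within-list ranks of 30.2, 31.3, 77.4, 64.7, 34.5, 45.1, 37.4, 48.8, 12.1, 55.5, 46.8, 31.4, 46.3, 56.4, 55.3, 69.1, 74.7, 58.4, 32.5, 12.3, 49.4 and 59.8%. Thus every member was called, with 9 ranked at 50% or above. In pre-B cells the peaks of Pcdhb3 (18.5%), Pcdhb17 (27.3%) and Pcdhb22 (6.44%) were called and those of the other 19 genes were not. Pcdhb3 and Pcdhb17 were also the highest of the 22 in IL7-cultured pro-B cells by these peaks at the frame start. Of the 34 CTCF peaks over the Pcdhb genes in those cells 3 overlapped a pre-B peak (8.82%, 1.86 to 23.7%), against 58.6% of the whole list. Among the 46416 peaks of the whole list with scores in the same wide range the share was 53.2%. In lists of equal length it was 3 of 19 (15.8%) against 85.5%.

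At Pcdhb all 22 genes had a peak before the frame, at a median position of -201 bp (-285 to -73 bp). A second peak lay far inside the frame at 11 genes, 1959 to 2267 bp from the start and so near the 3′ end of the exon. These second peaks ranked from 14.8 to 74.8%, with that of Pcdhb14 at the top, above its promoter peak at 56.4%. The second peaks of Pcdhb20 (44.5 against 12.3%) and Pcdhb10 (55.7 against 55.5%) were also above the promoter peak, and the rest were below it. None was called in pre-B cells. All of them held repeated words, as given above. Pcdhb12 alone had a peak in the first 1 kb.

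Pcdhg was the cluster called in most libraries. In IL7-cultured pro-B cells the best peaks of exons 1 to 20 ranked 65.1, 46.5, 67.1, 66.9, 54.4, 47.8, 69.8, 59.0, 53.3, 82.5, 54.4, 70.4, 32.8, 94.2, 62.0, 92.5, 70.9, 82.0, 55.6 and 25.5% in their list, and 16 of 20 stood at 50% or above. In pre-B cells 12 exons were called: exons 1, 3, 7, 10, 12, 14, 15, 16, 17, 18, 19 and 20, at 27.5, 27.3, 28.9, 22.4, 55.5, 74.5, 11.2, 68.1, 59.2, 65.4, 58.0 and 30.5%. Exon 14 stood highest in both lists and exon 16 was next, while exons 13 and 15, on either side of exon 14, were low or not called in pre-B cells. Exons 21 and 22, which with exon 20 are the C-type exons, had no peak in any library. Exons 1 and 2 lie before the annotated Pcdhg gene and are counted between the clusters where segments are given.

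**Figure D3:**
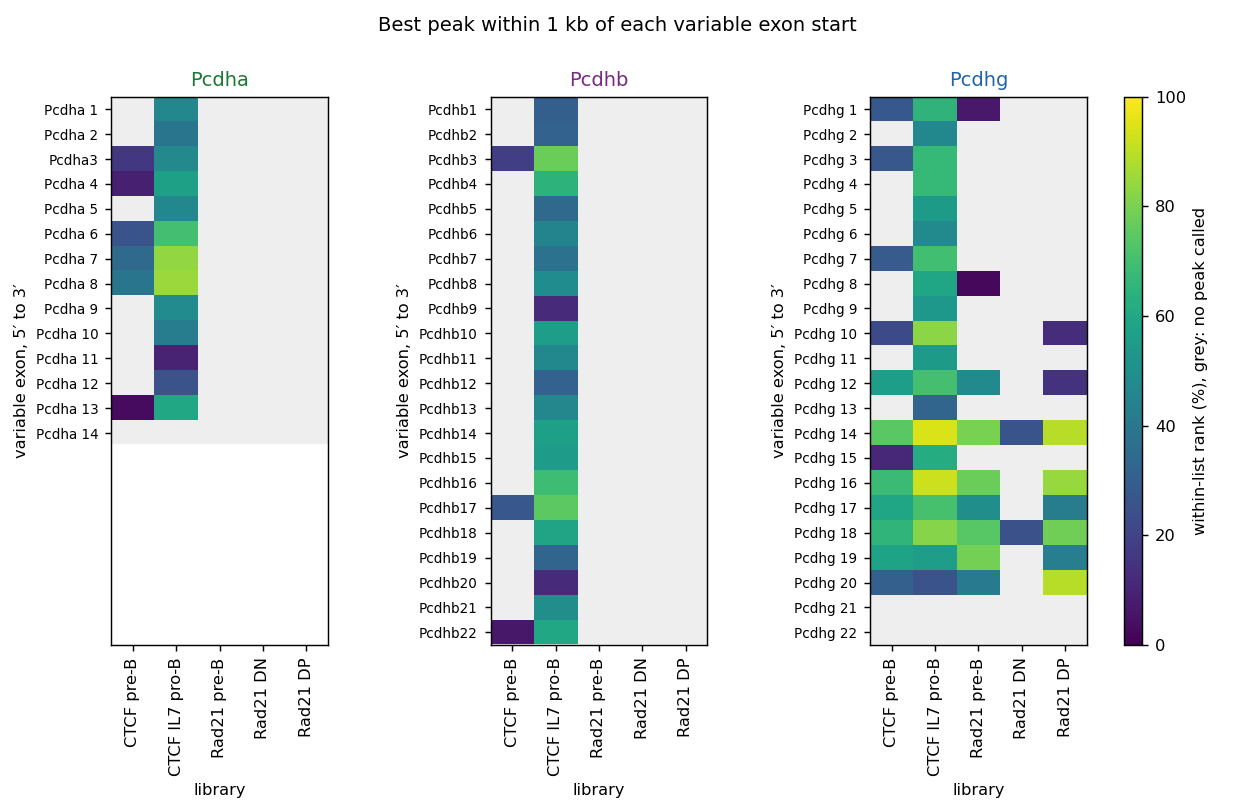
Within-list rank in percent of the best peak within 1 kb of each of the 58 variable exon starts, in 5′ to 3′ order from top to bottom, for the 5 libraries, with grey where no peak was called. The CTCF column of IL7-cultured pro-B cells is filled but for Pcdha exon 14 and Pcdhg exons 21 and 22, and Rad21 fills only Pcdhg, mostly from exon 12 to exon 20.

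Rad21 was gathered in the 3′ part of Pcdhg. In pre-B cells it was called at exons 1, 8, 12, 14, 16, 17, 18, 19 and 20, at ranks of 7.00, 2.18, 47.8, 79.9, 77.7, 49.8, 73.9, 79.2 and 41.3%. Exons 1 and 8, the pair outside the 3′ part, held the weakest of them. In DP thymocytes it was called at exons 10, 12, 14, 16, 17, 18, 19 and 20, at 12.9, 14.7, 89.1, 84.6, 42.1, 78.5, 42.9 and 89.4%. In DN thymocytes exons 14 (26.0%) and 18 (24.7%) were called. The DN list is the shortest, and its lowest score of 86.5 is above those of the other lists, 50 to 67.0. Exons 14 and 18 were the ones called in all 5 libraries.

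Exon 20, a C-type exon, stood differently against exon 14 within the Rad21 lists. Its Rad21 peak in DP thymocytes was the best of that list within the clusters (89.4%), level with exon 14 (89.1%). In pre-B cells its Rad21 peak stood at 41.3%, while that of exon 14 stood at 79.9%. Its CTCF peak ranked at 30.5% in pre-B cells and at 25.5% in IL7-cultured pro-B cells, the lowest of the 20 Pcdhg exons there. CTCF in DP thymocytes was not analysed here, and the lists differ in length, so only the order of exons within a list can be read, with no replicate check.

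Within Pcdhg, the exons where pre-B cells had both proteins were those with the stronger CTCF peaks. CTCF ranks were 27.5 to 74.5% at the 8 exons that also had Rad21, and 11.2 to 28.9% at the 4 that did not. These ranges share only the step from 27.5 to 28.9%. At exon 8 Rad21 was called without CTCF in pre-B cells, at a rank of 2.18%.

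The place of the peaks at Pcdhg was uniform. In IL7-cultured pro-B cells 20 of 22 peaks at frames lay before the frame, at a median position of -221 bp (-297 to -134 bp), and no exon had a second peak in the first 1 kb. Rad21 peaks lay over the same stretch, with median positions of -199 bp in the pre-B list and -158 bp in the DP list. Exons 11 and 20 had a further CTCF peak deep inside the frame, which in pre-B cells was called at exon 11 at a rank of 0.812%.

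**Figure D4:**
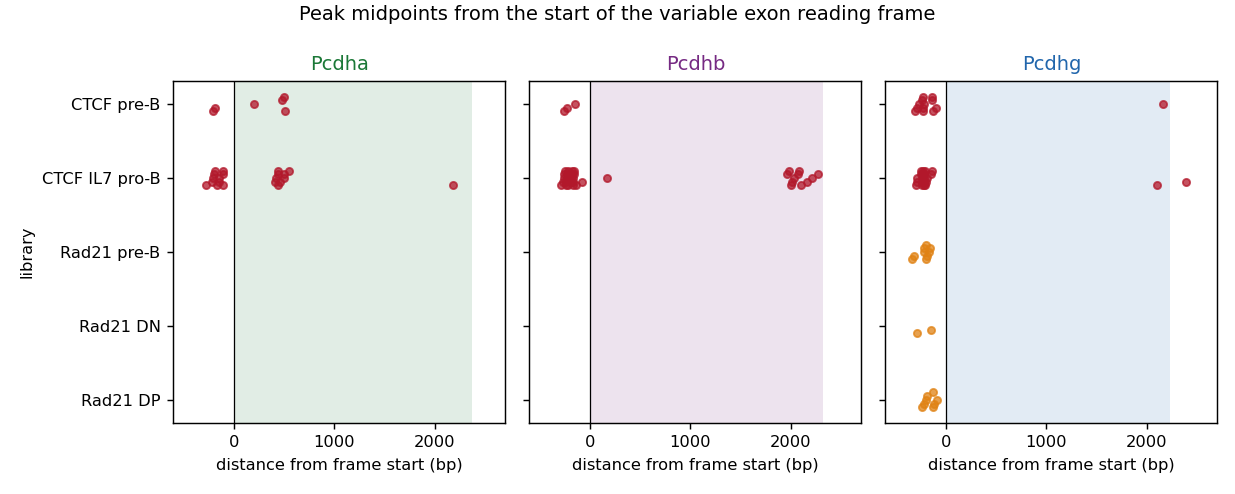
Midpoints of peaks measured in bp from the start of the variable exon reading frame, for each cluster and library, with each point 1 peak and shading over the length of the shortest frame of the cluster. Peaks gather before the frame in all 3 clusters, with a second group near 445 bp in Pcdha and a second group from 1959 to 2267 bp in Pcdhb.

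Across the region 16 of 32 pre-B CTCF peaks overlapped a pre-B Rad21 peak (50%, 31.9 to 68.1%), against 63.5% of all pre-B CTCF peaks. With both lists limited to 30488 peaks the order turned, to 15 of 18 (83.3%) against 78.9%. By segment the count ran from 0 of 10 between the first Pcdha and the last Pcdhb gene, through 7 of 13 over the annotated Pcdhg variable exons, to 7 of 7 in the downstream flank. Among all pre-B CTCF peaks with scores in the range of each segment's peaks the shares were 30.3, 52.5 and 95.6%. The counts over Pcdhg and downstream were near these shares. The range over Pcdhg is wide and takes in 31126 of the 42250 peaks, so scores were not closely matched. The peaks of the first stretch were weak. The interval on 0 of 10 reaches 30.8%, so a shortfall was not detectable with these 10 peaks. In the other direction 16 of 17 Rad21 peaks overlapped CTCF, against 88.1% over the whole list.

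The larger CTCF set of IL7-cultured pro-B cells was set against Rad21 of the other cells. None of the 57 peaks from Pcdha to Pcdhb overlapped Rad21 of either pre-B cells or DP thymocytes, with an upper bound of 6.27%. Of the 55274 peaks in the list with scores in the same wide range 32.5% overlapped pre-B Rad21 and 28.6% DP Rad21. Rad21 in IL7-cultured pro-B cells themselves was not analysed here, so cell type and protein cannot be told apart in this comparison. Merged over the 5 lists, the region held 95 sites: 74 with CTCF alone, 18 with both and 3 with Rad21 alone. All 54 sites at Pcdha variable exons and Pcdhb genes were CTCF alone.

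Between the clusters few peaks were called. A pair of CTCF sites stood 29662 and 30563 bp past the last Pcdha constant exon, at chr18:37376973-37377255 and chr18:37377874-37378282, in no annotated gene. An enhancer of Pcdha is known downstream of its constant exons, but its coordinates are not in the sources used here and the sites were not matched to it. The first was called in IL7-cultured pro-B cells (49.5%), and the second there (69.3%) and in pre-B cells (24.6%). Neither overlapped Rad21. Between Pcdhb and the annotated Pcdhg gene there were 4 CTCF sites, of which 2 were the promoters of Pcdhg exons 1 and 2, and the others ranked 17.9 and 44.2% in IL7-cultured pro-B cells alone. The longest stretch with no CTCF peak in IL7-cultured pro-B cells, 127536 bp between peak midpoints, ran from exon 13 of Pcdha to this pair. In the upstream flank 1 weak CTCF peak was called, at 25.6%.

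The strongest sites lay downstream. At the Pcdhg constant exons a site at chr18:38000855-38001491, in an exon, was called for CTCF in both lists (47.5% in the pre-B list, 51.7% in the other) and had a pre-B Rad21 peak at 6.13%. The flank past them held 7 sites called in at least 4 libraries. Enhancers that act on Pcdhb and Pcdhg are known downstream of the clusters, and here too no coordinates were at hand to match them. These sites lay in introns of Diap1, the gene of a formin that nucleates actin filaments, or just outside it.

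The site at chr18:38043002-38043767, in a Diap1 intron 41475 bp past the last constant exon, was the best-ranked CTCF peak of the region, at 99.7% in pre-B and 99.3% in IL7-cultured pro-B cells. Its scores were tied at 3100 in both lists, a value that other strong peaks also have. Rad21 there ranked at 73.3% (pre-B) and 35.5% (DP), and was not called in DN. At chr18:38011524-38012763, 9997 bp past the exons, CTCF stood at 99.4 and 98.4% in the same order and Rad21 at 92.3% in pre-B cells, the best Rad21 rank of the region in that list, and at 85.4% in DP thymocytes. CTCF and Rad21 were thus high together at this site in pre-B cells.

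Rad21 was highest in thymocytes at another site. At chr18:38067172-38068322, 65645 bp past the exons, Rad21 ranked at 97.6% in DP, 80.9% in DN and 89.9% in pre-B cells, while CTCF ranked at 66.6% (pre-B) and 86.4% (IL7-cultured pro-B). The site at chr18:38094968-38095783, outside Diap1 and 93441 bp past the exons, had Rad21 at 97.2% in DP, 60.4% in DN and 84.2% in pre-B cells and CTCF at 95.8% and 97.6%. Both were called in all 5 libraries. Within the region they held the best pair of Rad21 ranks in either thymocyte list.

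The remaining downstream sites called in 4 libraries lacked DN. Those at chr18:38036814-38037575 and chr18:38039661-38040424 had CTCF at 81.4 and 85.3% in pre-B cells, with Rad21 at 78.7 and 80.8% in pre-B cells and 51.7 and 84.4% in DP thymocytes. The site at chr18:38046566-38047277 had CTCF at 74.4% but Rad21 at 13.2% (pre-B) and 9.77% (DP). Rad21 alone, without CTCF in either list, was called at 3 sites of DP thymocytes, at 31.7, 1.59 and 48.4%, all in Diap1. The last, at chr18:38094425-38094965, lies directly beside the site at chr18:38094968-38095783, which had CTCF in both lists. Whether CTCF is also missing there in thymocytes is unknown, since no such list was analysed here.

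Rad21 peaks of the 3 cell types were merged to 21 sites. Of these 4 were called in all 3 cell types, 10 in both pre-B and DP cells, 4 in DP alone and 3 in pre-B cells alone, and none in DN without the others. The shares were 19% (5.45 to 41.9%), 47.6% (25.7 to 70.2%), 19% and 14.3%. Over all 46478 merged Rad21 sites they were 18.7, 25.1, 33.6 and 20.6%. The share called in pre-B cells and DP thymocytes lay above that of all sites, with an interval that just missed it, but peaks of a region are not independent. In lists of equal length it was 3 of 11 (27.3%, 6.02 to 61.0%) against 6.50%, which lies inside the interval. Of the 18 Rad21 peaks in DP thymocytes 15 overlapped a pre-B CTCF peak (83.3%, 58.6 to 96.4%), against 60.3% of that list, and all 8 at Pcdhg exons did. The DP-only sites within the clusters came down to Pcdhg exon 10, and the pre-B-only ones were Pcdhg exons 1 and 8 and the constant exons.

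All 32 pre-B CTCF peaks of the region were found again in IL7-cultured pro-B cells, as were 96.0% of the whole list. Of the 94 peaks of IL7-cultured pro-B cells 34 overlapped a pre-B peak (36.2%, 26.5 to 46.7%), against 58.6% of the whole list. By segment it was 7 of 21 over Pcdha variable exons, 3 of 34 over Pcdhb genes, 13 of 21 over Pcdhg variable exons and 8 of 10 downstream, so it was lowest at Pcdhb. In lists of equal length it was 31 of 60 (51.7%) against 85.5%. Culture with IL7, developmental stage, the transgene of the pre-B mice and library cannot be told apart in this design.

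The direction of the CTCF motif was read from the consensus that HOMER found de novo in CTCF peaks. The paper used several CTCF motifs, of which this one alone was searched here. Its 12 bases were looked for in every CTCF peak in either orientation, and up to 2 mismatches were allowed. All clustered protocadherin genes are transcribed toward higher coordinates, and a match was counted as along or against transcription. The consensus as listed by HOMER is the reverse complement of the form usually drawn as pointing forward, so a match on the minus strand was counted as along and one on the plus strand as against. Of the pre-B peaks in the region 12 of 32 held a match (37.5%, 21.1 to 56.3%), against 48.3% of the whole list. In IL7-cultured pro-B cells 24 of 94 did (25.5%, 17.1 to 35.6%), against 39.0%. Sequences of the same length 2000 bp to either side of the peaks held one in 9.02% and 6.04% over the whole lists. Around the peaks of the region they did in 6.25% (4 of 64) and 12.8% (24 of 188), and such a sequence can reach into another exon's peak.

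Direction split by place. In Pcdha every match pointed along transcription, 5 of 5 in pre-B cells and 7 of 7 in IL7-cultured pro-B cells, and 6 of these 7 lay 456 to 483 bp inside the frame. Both sites between Pcdha and Pcdhb pointed against it. So did the site at the Pcdhg constant exons and all 4 downstream sites with a match, in both lists. At 1 mismatch, and with a matrix built from pre-B peaks of other chromosomes, the Pcdha and downstream matches that remained kept these directions, while at 3 mismatches 2 of the 9 Pcdha matches with 1 direction in IL7-cultured pro-B cells pointed against. Over all CTCF peaks 49.6% of matches were on the strand that is along transcription here, in each list. The Pcdha matches and those past the clusters thus faced each other. These are descriptions of letters in peaks, and no contact between sites was measured.

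In Pcdhb and Pcdhg the promoter peaks had no match to this consensus at up to 2 mismatches, and the paper's other CTCF motifs were not searched. None of 22 Pcdhb and none of 20 Pcdhg peaks before the frame in IL7-cultured pro-B cells held one at up to 2 mismatches, and none of 12 Pcdhg peaks in pre-B cells did. The Pcdhb peaks near the 3′ end of the frame held a match in 9 of 11, with 3 along, 5 against and 1 on both strands. This mix rests on the setting, since at 1 mismatch 0 were along and 4 against, and with the matrix 0 and 6. With up to 3 mismatches, a setting that 37.4% of the neighbouring sequences and 84.8% of all peaks of that list also met, 10 of the 20 Pcdhg promoter peaks matched, 9 along transcription and 1 against. Of the 22 Pcdhb promoter peaks 14 then matched, with 5 along, 4 against and 5 on both strands. In pre-B cells 9 of 12 at Pcdhg did, with 4 along, 4 against and 1 on both strands, while 50% of neighbouring sequences and 91.2% of all peaks of that list met the setting. Downstream, the same setting added 1 match along transcription in each list. Absence of these letters says nothing about binding by the protein.

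**Figure D5:**
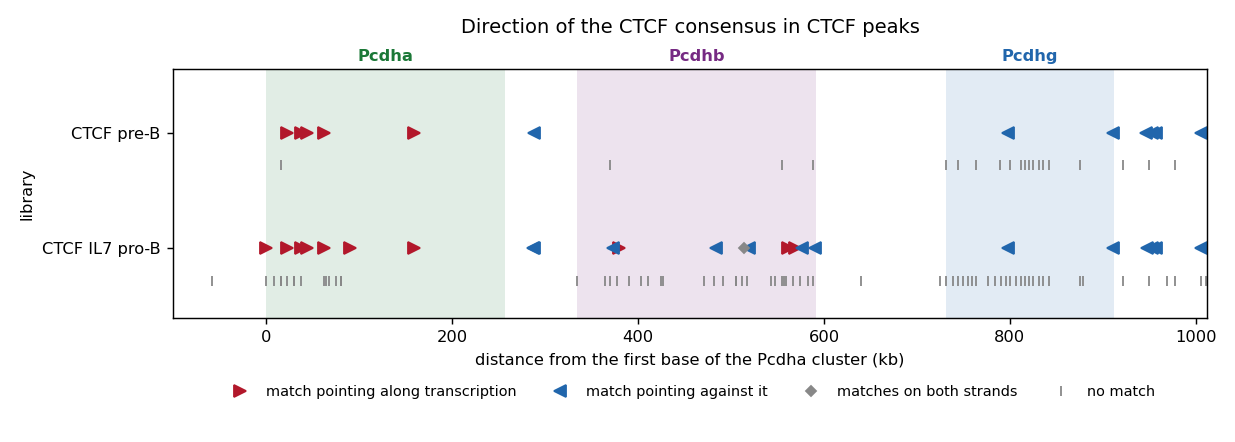
Direction of the best match to the CTCF consensus, with at most 2 mismatches, in the CTCF peaks of both lists. The x axis is the distance in kb from the first base of the Pcdha cluster, arrowheads show a match along or against transcription, diamonds a match on both strands and ticks a peak with no match. All arrowheads in Pcdha point right and all of those past Pcdhg point left.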

How the data were processed

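Reads without duplicates were placed on mm9 by the authors with Bowtie, and a read with up to 3 best places was kept. Confident peaks were called by them for each library with MACS 1.4.2, with input of the same cells as control. The deposited files give each peak's position and a score made from its p-value. The pre-B libraries share 1 input.

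Peaks were placed on the GENCODE annotation of mm9, and 1 bp of overlap counted. Where a peak touched a cluster and a neighbouring segment it was counted to the cluster. Variable exons are plus-strand reading frames of 2200 to 2700 bases. Between the Pcdhb genes 1 such frame lay in no annotated gene and was left out. Named were exons with a peak within 1 kb of their start, the 3 best peaks of each list, and sites between or past the clusters called in at least 4 of 5 libraries. Other sites between the clusters, at the constant exons or in the flanks were named after their values were seen. The members and lists were chosen with earlier results of these data known. Reading frames as promoters, and a Pcdhg segment begun at its first frame, were added after seeing the data. The functions were tested on simulated data. Sequence was read with samtools 1.23.1 and pysam 0.24.0, intervals came from scipy 1.17.1, and plots from matplotlib 3.10.9, all under Python 3.11.15 with numpy 2.4.6.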

Additional observations from a re-analysis of the deposited data

How the results depend on the processing

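Of 182 values under alternative settings 165 stayed near the reported ones, within 1.5 times for a count or within the interval for a share. With lists of equal length, CTCF peaks of IL7-cultured pro-B cells in the region fell to 60 (11 over Pcdha variable exons, 19 over Pcdhb), with 61.0% of annotated starts called and 51.7% shared with pre-B cells. Rad21 peaks fell to 10 (pre-B) and 8 (DP), with 4 each over Pcdhg variable exons and 4 downstream in DP. The share of pre-B CTCF peaks with Rad21 became 83.3%, and the share over all peaks 78.9%. Without flanks the Rad21 counts were 10 (pre-B), 2 (DN) and 8 (DP). At scores of at least 100 all 13 pre-B Rad21 peaks overlapped CTCF, or 100%. Of the Pcdhb matches in IL7-cultured pro-B cells 0% pointed along transcription at 1 mismatch (0 of 4) and with the matrix (0 of 6), and the cause was not tested. The other alternatives (midpoint counting, 50% overlap, windows of 500 bp and 2 kb or to the end of the first exon, 3 mismatches) moved none of the results past those limits, nor did the settings added later. At 1 mismatch no Pcdhg variable exon match was left, so that direction has no value. At 2 mismatches it rested on 1 match in each list, with an interval of 0 to 97.5% along transcription. Hence it could hardly pass the limit. At 3 mismatches 72.7% were along in IL7-cultured pro-B cells (8 along, 3 against) and 44.4% in pre-B cells (4 along, 5 against). No paired analysis was possible because each group has 1 library. Depth is unknown and limits any statement on sites without a peak.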
